A study of Mus musculus with 43 samples.

Results

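Brain RNA of APP/TAU mice was compared with that of wild type mice of the same age, both given vehicle. APP/TAU mice carry an APP transgene with the V717I mutation and a TAU transgene with the P301L mutation. The libraries were chosen by their titles, 5 of APP/TAU vehicle and 5 of wild type vehicle out of 43 in the series, all from animals 11 months old. The vehicle was 10% DMSO and 10% Chremophol EL in phosphate-buffered saline, by mouth 3 times per week for 2 weeks in APP/TAU mice; no dosing schedule is given for the wild type mice. Another 5 libraries of APP/TAU mice given CDDO-2P-Im at 30 µmol/kg on that schedule entered the fit to estimate the spread between libraries, and their values are printed where they show whether a difference recurs in a second set of APP/TAU libraries. The replicates of a group are not stated to be separate animals, and p-values therefore cover only how these libraries vary. The tissue is labelled brain with no region, and markers of neurons (Slc17a7 232 ± 29.8 scaled TPM in wild type, SD, n = 5) and of cerebellum (Pcp2 161 ± 17.0) were both present. Neurons (Snap25 1006 ± 13.6 in APP/TAU vehicle, 1043 ± 29.6 in wild type), astrocytes (Aqp4 59.6 and 61.3) and microglia (Tmem119 6.81 and 6.82) were all represented, and none of these markers was called. APP/TAU vehicle replicates 2 and 4 held less of the most abundant RNA than the other libraries, and replicate 1 held more RNA of some glial response genes. Both points are described with the results they touch.

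APP, the amyloid precursor protein, is cut by secretases to release amyloid-β, and TAU, the product of MAPT, is a microtubule-binding protein of axons that forms tangles when it detaches and aggregates. In published APP V717I and TAU P301L lines, both transgenes are driven by the promoter of the Thy1 gene, which is active in neurons; the labels do not name the promoter. Amyloid deposits are known to attract microglia that switch on genes such as Trem2, Cst7 and Itgax, and to surround themselves with astrocytes rich in Gfap.

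Of 17592 genes with a mean of at least 1 TPM (a share of all transcripts in a library, corrected for transcript length), 5 differed between the groups at an adjusted p below 0.05, 0.0284% of those tested. Thy1, App and the pseudogenes Gm15920 and Gm9855 were higher in APP/TAU libraries, and Ndufa12 was lower. Both pseudogenes passed the level filter only through APP/TAU libraries, so they could enter the test only with a difference, and their values are given as a description. At an unadjusted p below 0.05, 1247 genes (7.09%) were higher and 1255 (7.13%) lower, and with deposited TPM 4121 were higher and 65 lower. Values were rescaled so that the median gene has the same level in every library (scaled TPM), because the most abundant RNA took unequal shares. With TPM as deposited 4 genes were called (0.0227%), all but Ndufa12, and the median of all genes shifted from -0.0024 to 0.18 on the log2 scale. Without APP/TAU replicate 3 the count was 14 and without wild type replicate 1 it was 8, with the same 5 genes among them. In the fit the 95% interval of a fold reached 0.19 log2 units to either side at the median gene.

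**Figure D1:**
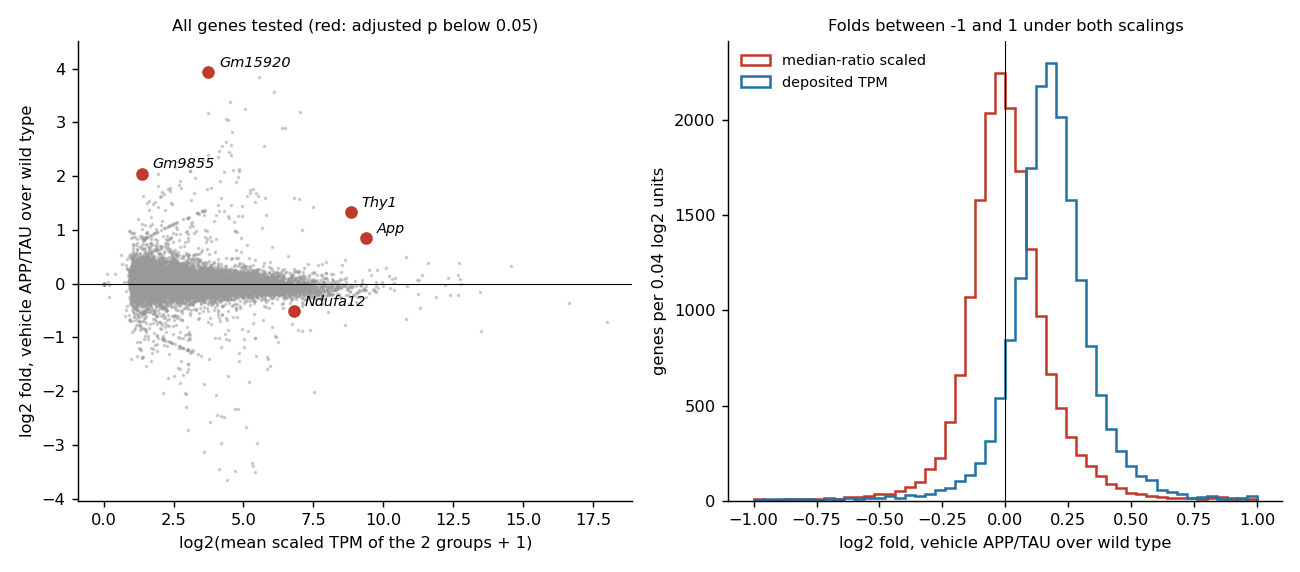
Left, log2 fold of APP/TAU vehicle over wild type (y axis) against mean level (x axis, log2 scale) for the 17592 genes tested, with the 5 called genes in red; right, the number of genes at each fold under both scalings. Thy1 and App stand above, and Ndufa12 below, the band of genes of similar level, and the deposited folds centre on 0.18 where the scaled folds centre on 0.

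Both called pseudogenes are annotated as processed copies, each nearly identical to a gene that was lower in all 5 APP/TAU vehicle libraries than in any wild type library, so their sequences are shown first. Gm15920 (chr5:130188395-130188796, plus strand, GRCm38) is a single exon of 402 bases that aligns to the coding sequence of Ndufa12 with 397 of 399 bases identical (99.5%). Gm9855 (chr10:42054113-42055306, minus strand) has 1194 bases and aligns to the coding sequence of Tdg with 1182 of 1191 identical (99.2%). Neither alignment has a gap. The stretches of 120 aligned bases with the most differences are printed 5′ to 3′ from the GENCODE M21 transcripts, with differing bases in capitals.
Gm15920: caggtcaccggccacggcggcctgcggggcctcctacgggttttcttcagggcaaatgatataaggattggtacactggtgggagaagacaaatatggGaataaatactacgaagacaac
Ndufa12: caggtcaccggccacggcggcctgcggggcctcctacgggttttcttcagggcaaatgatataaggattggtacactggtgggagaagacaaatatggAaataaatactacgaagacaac
Gm9855: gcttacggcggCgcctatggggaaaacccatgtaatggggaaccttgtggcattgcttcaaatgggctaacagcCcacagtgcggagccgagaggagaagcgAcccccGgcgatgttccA
Tdg: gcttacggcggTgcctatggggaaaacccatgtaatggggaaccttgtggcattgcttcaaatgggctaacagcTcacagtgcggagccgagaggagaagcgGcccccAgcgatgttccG
The Gm15920 stretch is bases 1 to 120 of its transcript (chr5:130188395-130188514), and the Ndufa12 stretch is coding bases 37 to 156, joined over an intron within chr10:94199081-94200019. The Gm9855 and Tdg stretches are bases 982 to 1101 of the pseudogene (chr10:42054206-42054325) and of the Tdg coding sequence (within chr10:82648009-82648627). With 1 differing base in the first pair and 5 in the other, a short read can match both members of a pair, so the split of reads between them is uncertain.

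Thy1 encodes a small membrane glycoprotein anchored on neurons and lies on chromosome 9 (44043384 to 44048579). It was at 242, 282, 253, 276 and 243 scaled TPM in wild type replicates 1 to 5 and at 684, 613, 666, 619 and 684 in APP/TAU vehicle replicates 1 to 5. Every APP/TAU library was above every wild type library. The log2 fold was 1.33 ± 0.0959 (SE, limma adjusted p = 1.57e-05). Treated APP/TAU libraries were at 625, 732, 654, 579.6 and 905, the same side of wild type. Within 5 Mb of Thy1, 104 tested genes gave none called. At an unadjusted p below 0.05, 18 of them were higher and 10 lower (7.09% and 7.13% of all genes). The smallest limma adjusted p was 0.172, that of Gm48114. It was at 8.85, 8.29, 7.59, 9.97 and 8.30 scaled TPM in APP/TAU vehicle and 5.69, 5.88, 5.00, 4.59 and 7.12 in wild type libraries. Treated libraries had 7.34, 6.97, 8.69, 6.80 and 5.37 of Gm48114, with replicates 2, 4 and 5 inside the wild type range.

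App (chromosome 16, 84949685 to 85173766) was at 474, 467, 490.3, 496 and 447 scaled TPM in wild type and at 851, 881, 910.4, 758 and 890.3 in APP/TAU vehicle libraries. The lowest APP/TAU library was above the highest wild type library. The log2 fold was 0.85 ± 0.0805 (limma adjusted p = 1.48e-04), and treated libraries were at 878, 930.2, 888, 864 and 1202. Within 5 Mb, 21 tested genes gave none called. The sources used here do not say whether reads from the human transgene were counted in the mouse App row.

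Mapt encodes tau (chromosome 11, 104231390 to 104332090). Its wild type values were 126, 125, 124, 142 and 124 scaled TPM, and APP/TAU vehicle libraries had 179, 155, 148, 151 and 156. All 5 APP/TAU libraries were above all 5 wild type libraries, but the log2 fold of 0.30 ± 0.0804 did not pass the test (limma adjusted p = 0.176). As for App, it is not known whether reads from the human transgene were counted in this row. In treated libraries Mapt was at 156, 179, 153, 123 and 145, so that replicate 4 was below every wild type library. Of the 15 genes listed for the transgenes, their promoter candidates and amyloid processing, Thy1 and App were called. Prnp, which encodes the prion protein and whose promoter is used in other tau lines, was at 248 against 265 scaled TPM (here and below, the APP/TAU vehicle mean against the wild type mean; log2 fold -0.10, adjusted p = 0.376). Adam10, an α-secretase, was at 30.0 against 31.7 scaled TPM (adjusted p = 0.350).

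Ndufa12, a subunit of respiratory complex I (chromosome 10, 94198720 to 94221443), was at 122, 136, 139.7, 136 and 121 scaled TPM in wild type and at 83.0, 92.5, 96.5, 84.3 and 103 in APP/TAU vehicle libraries. The groups did not overlap, and the gene fell by 0.51 ± 0.0633 on the log2 scale (limma adjusted p = 0.00360). With deposited TPM the fold was -0.30 and was not called (adjusted p = 0.135), nor was it without the 2 APP/TAU libraries poorest in the most abundant RNA (-0.48, adjusted p = 0.102). The call was also lost with the share of that RNA as a covariate (adjusted p = 0.259), with only the 2 groups in the fit (0.0534) and with a replicate block (0.0697). Treated libraries were at 113, 107, 100.5, 101 and 98.2, also below every wild type library.

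The copy Gm15920 was at 0, 1.29, 1.48, 0.754 and 0 scaled TPM in wild type and at 19.3, 15, 35.6, 28.1 and 23.0 in APP/TAU vehicle libraries, a fitted log2 fold of 3.93 ± 0.303 that depends on the pseudocount (5.69 with 0.1 in place of 1; limma adjusted p = 1.94e-05). Without any level filter the adjusted p was 6.42e-05. Every APP/TAU library lay far above wild type, and the treated libraries did too, at 32.8, 19.8, 17.2, 23.0 and 37.4. The sum of Ndufa12 and Gm15920 was 122, 137, 141, 137 and 121 in wild type and 102, 108, 132, 112 and 126 in APP/TAU vehicle libraries. These sums overlap between the groups, with means of 132 and 116, where Ndufa12 alone had 131 and 91.8. The sum was chosen after its values were seen and was not tested.

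Gm9855 was listed at 0 in all 5 wild type libraries and at 3.60, 2.23, 2.99, 3.73 and 3.31 scaled TPM in the APP/TAU vehicle libraries (limma adjusted p = 3.25e-05; no fold is given against a group at 0, and the row reached the level filter only through APP/TAU libraries). Treated libraries were at 3.56, 4.95, 3.28, 2.44 and 6.26. Its parent Tdg, which encodes thymine DNA glycosylase, a base excision repair enzyme (chromosome 10, 82629828 to 82650799), was at 9.90, 9.93, 10.7, 10.8 and 8.99 in wild type and 7.47, 7.02, 7.87, 8.82 and 7.76 in APP/TAU vehicle libraries. All APP/TAU values of Tdg were below all wild type values, but the log2 fold of -0.33 ± 0.0860 was not called (adjusted p = 0.172). The sum of both rows was 10.1 ± 0.717 in wild type and 11.0 ± 1.17 in APP/TAU vehicle libraries (SD, n = 5).

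A further row named as a Tdg copy lay below the level filter, and its sequence was not aligned here. Tdg-ps (chromosome 15) was listed at 0 in all 5 wild type libraries, and stood at 0.569, 0.493, 0.558, 0.801 and 0.525 scaled TPM in APP/TAU vehicle and at 0.387, 0.668, 0.770, 0.782 and 0.864 in treated libraries. Cfap54, which encodes a protein of cilia and lies near Ndufa12 on chromosome 10 (92775619 to 93081618), was at 1.52, 1.49, 1.80, 2.64 and 1.93 in wild type and 4.09, 3.39, 3.96, 3.78 and 3.14 in APP/TAU vehicle libraries. Its groups did not overlap, and its log2 fold of 0.71 ± 0.124 missed the threshold (adjusted p = 0.0926). Gm15920, Gm9855, Tdg, Tdg-ps, Cfap54 and Gm48114 were named after their values were seen.

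**Figure D2:**
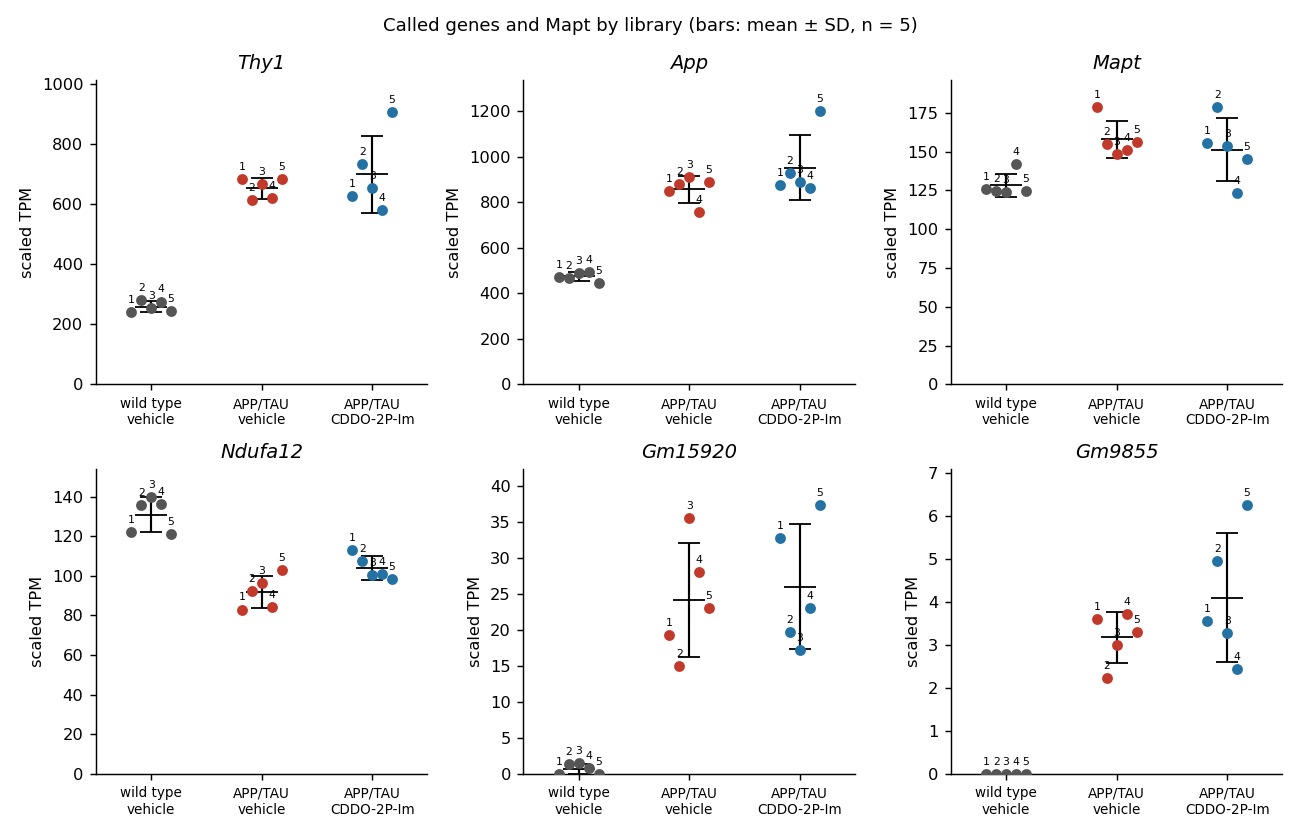
Scaled TPM (y axis, from 0) of the 5 called genes and Mapt in each library of the 3 groups (x axis); digits are replicate numbers, bars mean ± SD (n = 5). For Thy1, App, Ndufa12, Gm15920 and Gm9855 both sets of APP/TAU libraries sit on the same side of every wild type library, and for Mapt treated replicate 4 does not.

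No gene of the glial response to amyloid was called. Of 34 listed genes of plaque-associated microglia, 27 passed the level filter, none was called, none was higher and 2 were lower at an unadjusted p below 0.05 (7.09% of all genes were higher and 7.13% lower by that measure). Their median log2 fold was -0.068 scaled and 0.13 with deposited TPM, on the low side of all genes both times. Trem2, a microglial lipid receptor needed for that response, was at 4.91, 6.06, 5.72, 6.48 and 5.39 scaled TPM in wild type and 7.52, 5.18, 5.90, 4.70 and 4.11 in APP/TAU vehicle libraries, and the groups overlapped (log2 fold -0.068 ± 0.117, 95% interval -0.32 to 0.18, adjusted p = 0.83). Apoe, the lipid carrier, was at 664 against 680.5 scaled TPM (adjusted p = 0.813). The lysosomal genes Ctsl (log2 fold -0.27, adjusted p = 0.204) and Cd68 (0.31, adjusted p = 0.358) pointed in opposite directions.

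The other glial lists gave no call either. Of 16 homeostatic microglia genes 2 were lower at an unadjusted p below 0.05 (7.13% of all genes), among them P2ry12, the ADP receptor of resting microglia (at 9.92 against 11.5 scaled TPM, adjusted p = 0.290). Of 13 tested complement and phagocytic receptor genes and 14 tested reactive astrocyte genes none reached even that. Gfap, the intermediate filament of astrocytes, was at 81.6, 91.9, 92.2, 105 and 82.4 scaled TPM in wild type and at 153, 91.3, 78.3, 70.1 and 103 in APP/TAU vehicle libraries (log2 fold 0.079 ± 0.172, adjusted p = 0.868). C4b, a complement component made by astrocytes and oligodendrocytes, was at 11.4, 16.3, 11.8, 12.1 and 13.2 in wild type and at 23.1, 13.6, 11.3, 12.2 and 14.8 in APP/TAU vehicle libraries (adjusted p = 0.681). Serpina3n, a secreted protease inhibitor, was at 8.60, 9.47, 8.95, 10.3 and 7.60 in wild type and at 14.8, 9.51, 7.51, 8.45 and 9.21 in APP/TAU vehicle libraries (adjusted p = 0.817). In all 3 genes only APP/TAU replicate 1 was above every wild type library.

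APP/TAU vehicle replicate 1 was often the highest of the 10 libraries compared in these genes. It held the highest value in 19 of the 34 plaque-associated microglia genes, 9 of 19 complement and phagocytic receptor genes and 7 of 20 reactive astrocyte genes, genes below the level filter included, and in 3 of 16 homeostatic microglia genes. Other lists peaked in 1 library too. Wild type replicate 4 was highest in 11 of 21 myelin and oligodendrocyte genes, and wild type replicate 3 in 7 of 10 striatal genes. The share over all genes is not given, so these counts do not set replicate 1 apart. Cst7, which encodes a protease inhibitor of plaque microglia, was at 2.01, 0.406, 0.315, 0 and 0.274 deposited TPM in APP/TAU vehicle and 0.133, 0.232, 0.276, 0 and 0.431 in wild type libraries. Itgax, the integrin CD11c, was at 1.43, 0.161, 0.157, 0 and 0.244 in APP/TAU vehicle and 0.0263, 0.162, 0.218, 0.106 and 0.0308 in wild type libraries. Both genes were under 0.5 TPM in the other 9 libraries, and both are below the level filter. Clec7a, a receptor of fungal glucans, reached 2.87 deposited TPM there and 1.68 in wild type replicate 3, the next highest of the 10.

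The same library also held the most Mapt of the 10 (179 scaled TPM), while its App lay inside the range of its group. Lysosomal Cd68 was at 7.53, 5.05, 5.11, 5.33 and 4.56 in the APP/TAU vehicle libraries. Without replicate 1 the log2 fold of Gfap was -0.089, that of C4b 0.00394, that of Serpina3n -0.045 and that of Cd68 0.21, none of them called. The part of this library in the glial values beyond leaving it out was not tested. Without replicate 1 the median over plaque-associated microglia genes was -0.10, with none called. At an unadjusted p below 0.05, 4 of 27 of these genes were then lower, and 3 of 13 complement and phagocytic receptor genes. The same held for 3 of 16 homeostatic microglia genes and for 0 of 14 reactive astrocyte genes. None in these lists was higher, and the share of all genes in that fit is not given.

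**Figure D3:**
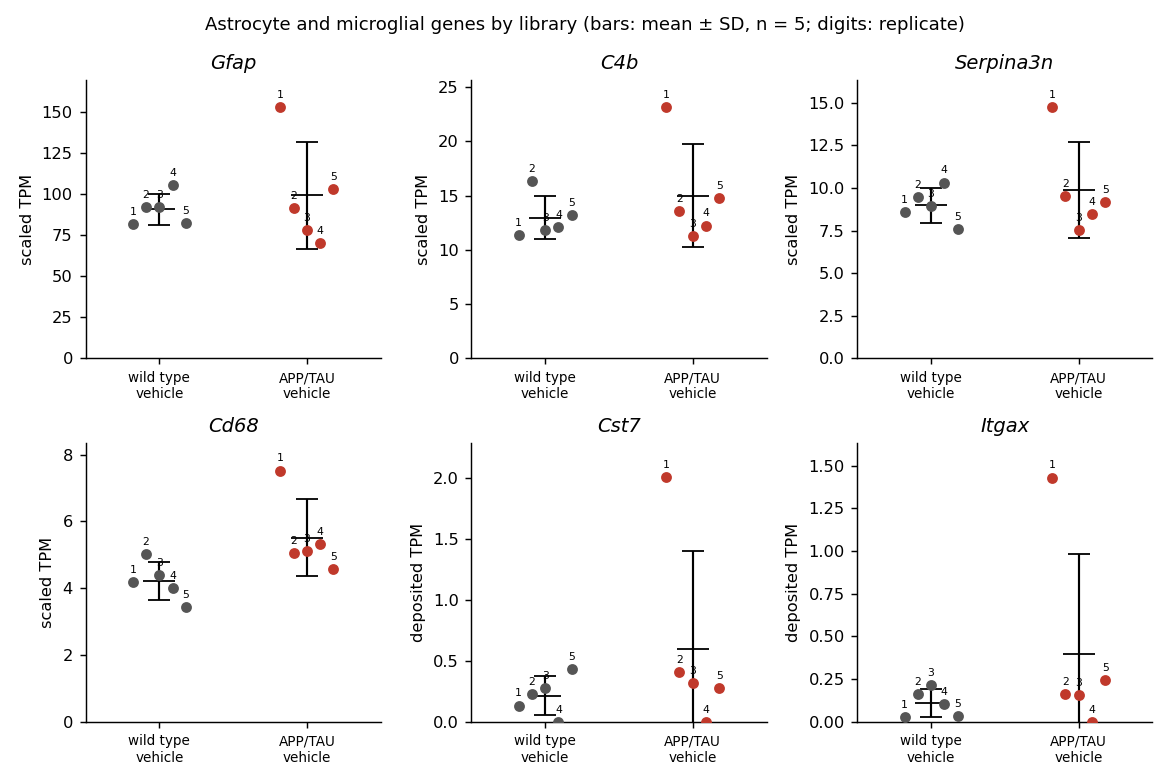
Levels (y axis, from 0; scaled TPM, or deposited TPM for Cst7 and Itgax) of astrocyte and microglial genes in the 5 wild type and 5 APP/TAU vehicle libraries (x axis); digits are replicate numbers, bars mean ± SD, drawn from 0 upward. In each panel APP/TAU replicate 1 is the highest of the 10 libraries.

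No gene of the synaptic, axonal, inhibitory or immediate early lists was called. Of all genes tested, 7.09% were higher and 7.13% lower at an unadjusted p below 0.05. Of 22 glutamatergic synapse genes 2 were higher at an unadjusted p below 0.05: Grin1, the obligatory NMDA receptor subunit (at 121 against 113 scaled TPM, log2 fold 0.10 ± 0.0307, adjusted p = 0.204), and Shank1, a postsynaptic scaffold (at 149.8 against 129 scaled TPM, 0.21 ± 0.0684, adjusted p = 0.214). Of 25 presynaptic and axonal genes 5 were higher and 1 lower by that measure. In this list 10 scaled folds were above 0 and 15 below, with a median of -0.018. The higher ones include Map1b and Map1a, microtubule-associated proteins of axons and dendrites (log2 folds 0.10 and 0.11, adjusted p = 0.233 and 0.247), and Kif1a, the motor of synaptic vesicle precursors (0.094, adjusted p = 0.241). Of 17 inhibitory neuron genes 4 were lower at that unadjusted p, among them Pvalb, the calcium buffer of fast-spiking cells (at 148 against 175 scaled TPM, adjusted p = 0.261). Immediate early genes, which report recent neuronal firing, gave 0 of 24 at that level: Fos was at 31.7, 31.0, 33.9, 27.8 and 31.9 scaled TPM against 31.1, 27.1, 26.8, 28.0 and 27.6 in wild type, and Arc at 71.8 against 69.5 scaled TPM (adjusted p = 0.873).

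Among the most one-sided lists were those of energy and protein synthesis, at small folds. Of 20 nuclear genes for respiratory chain subunits, all 20 had a scaled fold below 0 (the median was -0.13, and 0.072 with deposited TPM), 12 were lower at an unadjusted p below 0.05 (7.13% of all genes) and Ndufa12 alone was called. Cox7c, a subunit of cytochrome oxidase, was at 233, 243, 244, 309.8 and 226 scaled TPM in wild type and 175, 197, 218, 150.3 and 224 in APP/TAU vehicle libraries (log2 fold -0.38 ± 0.101, adjusted p = 0.172). Ndufa4, another oxidase-associated subunit, was at 257 against 298 scaled TPM (adjusted p = 0.194). Of 20 ribosomal protein genes 18 had a scaled fold below 0 and 9 were lower by that measure, with a median of -0.17 scaled and 0.043 deposited. Rpl37 was at 93.4 against 115 scaled TPM (adjusted p = 0.176) and Rplp0 at 96.6 against 111 scaled TPM (adjusted p = 0.200). The 15 genes encoded in mitochondrial DNA had a median of 0.16 scaled and 0.37 deposited, with mt-Nd6 (log2 fold 0.22) and mt-Atp8 (0.50) higher and mt-Nd3 (-0.21) lower at an unadjusted p below 0.05 (adjusted p = 0.235, 0.266 and 0.240). In wild type replicate 4 mt-Atp8 was at 785 scaled TPM, against 1542 to 1819 in the other 4 wild type libraries; without that library the median of the list was 0.0108 and the log2 fold of mt-Atp8 0.28.

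Genes switched on by NRF2, the transcription factor that drives antioxidant and detoxifying enzymes and that KEAP1 holds back, were not called. Of 36 listed targets 31 were tested, 27 had a scaled fold below 0 and 7 were lower at an unadjusted p below 0.05 (7.13% of all genes). The median log2 fold was -0.10 scaled and 0.087 with deposited TPM. Ftl1, the ferritin light chain that stores iron, was at 238, 228, 237, 220.5 and 229.8 scaled TPM in wild type and at 214, 196, 217, 187 and 208 in APP/TAU vehicle libraries (log2 fold -0.18 ± 0.0424, adjusted p = 0.172). Gstm1, a glutathione transferase, was at 143, 174, 139, 158 and 132 in wild type and at 127, 119.6, 124, 120.5 and 126 in APP/TAU vehicle libraries (-0.26 ± 0.0678, adjusted p = 0.172). In both genes every APP/TAU vehicle library was below every wild type library, and the deposited folds were 0.031 and -0.055. Both were named for a small p within their list, and the share of all genes without overlap is not given. Haem oxygenase Hmox1 was at 1.96 against 2.63 scaled TPM (adjusted p = 0.215) and the quinone reductase Nqo1 at 4.05 against 4.35 scaled TPM (adjusted p = 0.769). The NRF2 gene Nfe2l2 was at 8.73 against 9.73 scaled TPM (adjusted p = 0.390) and Keap1 at 18.5 against 18.5 scaled TPM (adjusted p = 0.999).

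Among the remaining lists, chaperones and genes of the unfolded protein response had 22 of 24 scaled folds below 0 and 4 lower at an unadjusted p below 0.05 (7.13% of all genes). Their median was -0.11 scaled and 0.080 deposited. Hspa8, the constitutive HSP70, was at 725, 724, 731, 797 and 793 scaled TPM in wild type and 612, 683, 707, 619 and 709 in APP/TAU vehicle libraries (adjusted p = 0.189), without overlap. Dnajb9, a chaperone partner in the endoplasmic reticulum, was at 18.6 against 22.0 scaled TPM (adjusted p = 0.179). Astrocyte identity genes had all 16 scaled folds below 0 and 5 lower by that measure (median -0.082 scaled, 0.13 deposited), among them the glutamate transporter Slc1a3 (at 123 against 132 scaled TPM, adjusted p = 0.231) and the glycolytic enzyme Aldoc (at 492 against 557 scaled TPM, adjusted p = 0.231). The 26 genes of lysosome and autophagy had 5 lower, including Lamp2, a lysosomal membrane protein (at 45.8 against 50.8 scaled TPM, adjusted p = 0.238). Lrp1, a receptor that takes up lipoproteins and amyloid-β, was at 103, 103, 94.1, 107 and 94.5 against 89.4, 86.9, 79.6, 83.2 and 91.8 in wild type, without overlap (log2 fold 0.22 ± 0.0625, adjusted p = 0.192). The myelin, oligodendrocyte precursor, circadian clock, interferon and cortex lists held no gene at an unadjusted p below 0.05.

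**Figure D4:**
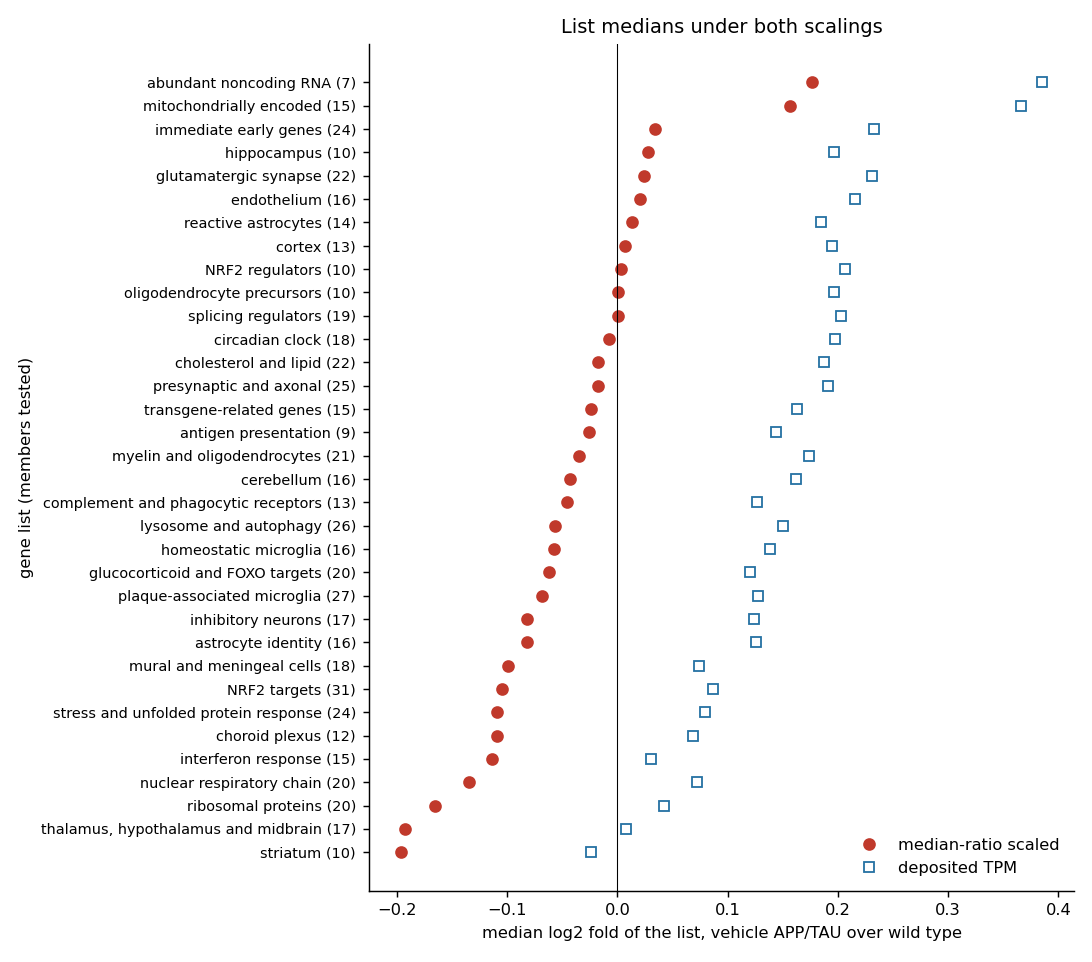
Median log2 fold of APP/TAU vehicle over wild type (x axis) for 34 gene lists (y axis, members tested in parentheses), with scaled TPM as circles and deposited TPM as squares; blood and sex-linked lists are left out. Most scaled medians lie within 0.1 of 0, and the respiratory chain and ribosomal protein medians, below 0 when scaled, lie above 0 with deposited TPM.

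The most abundant RNA, a gene row without a symbol, took 28.1, 34.5, 32.4, 24.9 and 30.7% of each library's TPM in wild type and 21.2, 15.8, 28.5, 15.5 and 29.1% in APP/TAU vehicle libraries. Of the APP/TAU vehicle libraries, replicates 2 and 4 were below 20%, replicate 1 was below the wild type range, and replicates 3 and 5 were within the wild type range. The difference in means was -8.13 percentage points (two-sided exact permutation p = 0.0635, 5 against 5). Treated APP/TAU libraries took 29.2, 28.3, 31.2, 27.9 and 31.1%, all within the wild type range. Because TPM sum to a fixed total, less of this RNA raises all others. Rescaling takes out any shift shared by most genes, and the part of this RNA in that shift was not tested. The scaling factor had a mean of 0.967 in wild type and 1.12 in APP/TAU vehicle libraries. It was highest in APP/TAU vehicle replicates 2 (1.28) and 4 (1.22), then 1.16 in wild type replicate 4 and 1.14 in APP/TAU vehicle replicate 1. Rpph1, the RNA of ribonuclease P, was at 17756, 20208, 13202, 8580.4 and 14787 scaled TPM in wild type and 7058, 6609, 11292, 4602 and 11878 in APP/TAU vehicle libraries (adjusted p = 0.200), lowest in replicates 2 and 4. The long noncoding RNAs Meg3 (276, 286, 269, 336 and 249 against 236, 229.9, 196, 179 and 233; adjusted p = 0.176) and Neat1 (52.9, 58.3, 51.9, 64.2 and 55.2 against 36.8, 46.8, 47.3, 44.0 and 48.6; adjusted p = 0.172) did not overlap between groups and were highest in replicate 4. Without replicates 2 and 4 the log2 fold of Neat1 was 0.26, against 0.33 with them.

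Fold also moved with exonic length, the number of bases covered by any annotated exon of a gene. Over 13119 protein-coding genes in 5 bins of equal size, the median log2 fold went from -0.080 in the shortest bin (44 higher and 412 lower at an unadjusted p below 0.05) to 0.0144 in the longest (290 higher and 129 lower). With the share of the most abundant RNA as a covariate the ends were -0.0455 and 0.00451, and without replicates 2 and 4 they were -0.0578 and 0.0112. Without those replicates the median of the respiratory chain list was -0.0871, that of ribosomal proteins -0.0655 and that of NRF2 targets -0.0936; with the covariate they were -0.0463, -0.0163 and -0.0417. The transcripts of most ribosomal and respiratory chain proteins are short. The part of length and of this RNA in the list values was not tested beyond these alternatives.

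Markers of blood, vessels and neighbouring regions varied between libraries. The 7 tested blood genes of 12 listed summed to 27.6 to 85.2 scaled TPM in wild type and 34.3 to 483 in APP/TAU vehicle libraries. The β-globin gene Hbb-bs was at 31.0, 20.1, 149, 95.5 and 10.5 against 11.2, 21.8, 12.3, 10.9 and 5.29, highest in replicates 3 and 4 (adjusted p = 0.312). The smooth muscle genes Tagln and Acta2 were at 1.30 against 2.22 scaled TPM and at 3.14 against 3.94 scaled TPM (adjusted p = 0.186 and 0.205). Of the 18 mural and meningeal genes they belong to, 11 had a scaled fold below 0 and 7 above. At an unadjusted p below 0.05, 1 of the 18 was higher and 3 were lower (7.09% and 7.13% of all genes). Avp, the vasopressin gene of the hypothalamus, was at 3.29, 3.66, 31.9, 8.84 and 1.73 in wild type and 1.04, 1.38, 3.12, 2.23 and 0.916 in APP/TAU vehicle libraries. The 10 striatal genes summed to 127 to 181 in wild type and 130.2 to 143 in APP/TAU vehicle libraries, with Ppp1r1b, a phosphoprotein of striatal neurons, at 34.9 against 42.3 scaled TPM (adjusted p = 0.211). In bulk tissue, fewer cells of a type and less RNA per cell cannot be told apart.

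The genotype effect was then set against that of AppNLGF mice, which carry a humanised amyloid sequence and familial mutations in their own App gene, at 6 months (11 vehicle libraries, dosed 3 times per week for 4 weeks, against 4 of wild type given vehicle, for which no schedule is given). Of 16418 genes tested in both tables, the genotype fold differed between the models for 87 (0.53%), 59 lower and 28 higher in APP/TAU. With deposited TPM it differed for 29, 3 lower and 26 higher, and with 1 of the 25 libraries of these 4 groups left out for 42 (without 6-month wild type replicate 2) to 116 (without APP/TAU replicate 5). Age, model, the length of dosing and the separate tables differ together, and the regions in the sample may differ too, so they cannot be told apart.

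Thy1 and App had a higher genotype fold in APP/TAU: the difference of log2 folds (APP/TAU minus AppNLGF) was 1.30 for Thy1 and 0.92 for App (limma adjusted p = 6.47e-13 and 6.32e-11). These 2 alone were called among the 15 transgene-related genes, where 6 differences were above 0 and 9 below. In AppNLGF libraries Thy1 was at 259 ± 14.3 scaled TPM against 254 ± 17.4 in their wild type (SD, n = 11 and 4), and App at 431 ± 13.0 against 452 ± 18.6. Some microglial and astrocyte genes had a lower genotype fold in APP/TAU. The difference passed the test, on the lower side, for 10 of 26 plaque-associated microglia genes, 7 of 13 complement and phagocytic receptor genes, 3 of 16 homeostatic microglia genes, 6 of 26 lysosome and autophagy genes and 2 of 13 reactive astrocyte genes, but for none of 21 myelin and oligodendrocyte or 10 oligodendrocyte precursor genes. These are counts with scaled TPM; with deposited TPM only 3 genes of all 16418 were lower, namely Trem2, Lyz2 and Gfap. Within AppNLGF, 16 of the 26 plaque-associated microglia genes were higher than in their wild type at an adjusted p below 0.05 (88 of all 16418 genes, 0.536%).

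Trem2 had a log2 fold of -0.068 in APP/TAU and 1.44 in AppNLGF (difference -1.50, adjusted p = 3.73e-05), and Gfap 0.079 and 1.61 (difference -1.53, adjusted p = 2.50e-04). Ctsd, the lysosomal protease cathepsin D, differed by -0.96 (adjusted p = 1.74e-06), and C1qc, a chain of the first complement component, by -0.95 (adjusted p = 1.31e-04). With deposited TPM the difference of Ctsd was -0.72 and that of C1qc -0.73, not called (adjusted p = 0.0970 and 0.0753), while Trem2 and Gfap were called there too (adjusted p = 0.00881 and 0.0495). Apoe (-0.091, adjusted p = 0.790) and P2ry12 (-0.43, adjusted p = 0.371) did not pass.

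Of 24 immediate early genes 9 had a higher genotype fold in APP/TAU by the test, and of all 24 differences 21 were above 0 and 3 below; with deposited TPM 7 passed. Within AppNLGF, 10 of these 24 were lower than in their wild type (27 of all 16418 genes, 0.164%). Fos had a log2 fold of 0.15 in APP/TAU and -1.68 in AppNLGF (difference 1.82, adjusted p = 0.00212), and the clock gene Per1 0.20 and -0.54 (difference 0.74, adjusted p = 0.0190). The difference of Per1 was not called without wild type replicate 3 (adjusted p = 0.0642) or 4 (0.0587), both of 11 months, or without 6-month wild type replicate 3 (0.0729). The NRF2 targets Hmox1 (-0.75, adjusted p = 0.0189) and Ftl1 (-0.28, adjusted p = 0.0428) had a lower genotype fold in APP/TAU, 2 of 31 tested, but Hmox1 was not called with deposited TPM (adjusted p = 0.130) or without 11-month wild type replicate 3 (0.0515) or 6-month wild type replicate 2 (0.0661). Ftl1 was not called with deposited TPM (adjusted p = 0.810) or in 19 of 25 fits with 1 library left out (adjusted p up to 0.122). Adam10, Ctsd, C1qc and Lyz2 were named after their values were seen.

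**Figure D5:**
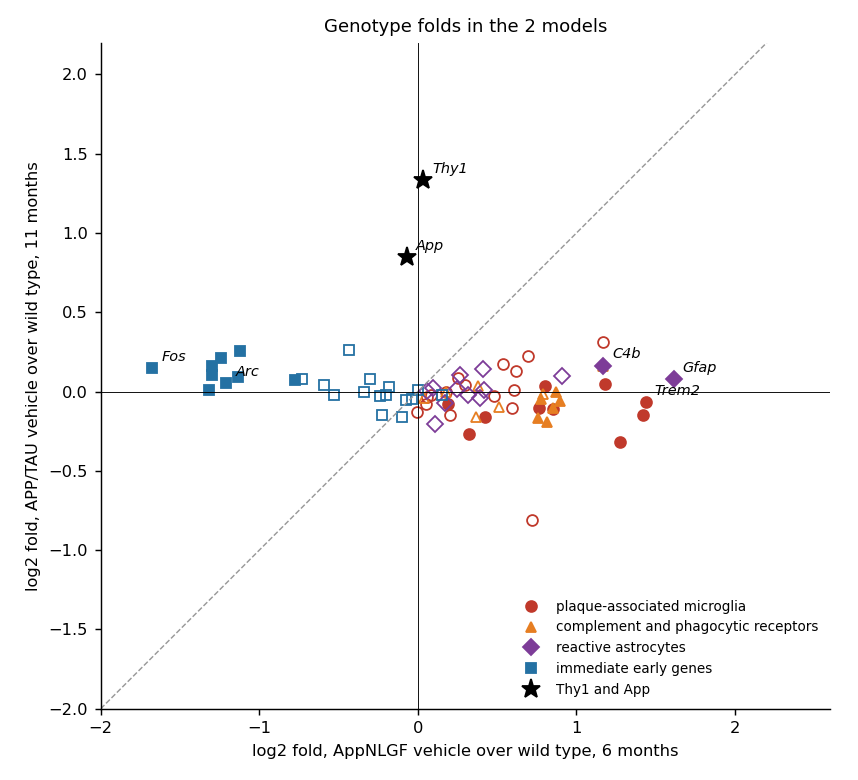
Log2 fold of vehicle-treated APP/TAU over wild type at 11 months (y axis) against that of AppNLGF over wild type at 6 months (x axis) for members of 4 gene lists and for Thy1 and App; filled symbols mark a difference between the models at an adjusted p below 0.05, and the dashed line marks equal folds. Called microglial and astrocyte genes lie to the right and called immediate early genes to the left, and Thy1 and App lie above the dashed line.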

How the data were processed

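RNA was extracted with Sepasol and libraries were made with the MGIEasy RNA Directional kit on an MGISP-960 system, per the labels' protocols. The authors deposited TPM per gene row, made with Salmon, with mm10 (GRCm38) as the build, per the submitters' processing notes; the sources used here give neither the Salmon version nor the annotation release. TPM keep no read numbers, so depth is unknown and no counting interval is given. Libraries were grouped by title. Symbols matched 51327 of 55804 gene rows, and positions, exons and transcript sequences are those of GENCODE M21 on GRCm38. Genes with a mean of at least 1 TPM over the 15 libraries of the table were divided by median-ratio factors, taken as log2(TPM + 1) and fitted with limma 3.58.1 (trend, R 4.3.3), with 1 mean for each of 3 groups, two-sided, Benjamini-Hochberg adjusted over all 17592 genes. Folds are on that log2 scale, which understates low genes. The difference between models was a contrast in 1 fit of 6 groups, scaled within each table. The fit was tested on simulated data. Genes are named by rule: of the called genes, predicted and unnamed ones left out, the 12 that rose most and the 12 that fell most; up to 3 members per list with the smallest p; and 20 chosen genes. Exceptions are stated. The members, the 36 lists and the alternatives were chosen with earlier results of these data known. Alternatives were deposited TPM, other scalings, pseudocounts and level filters, robust and weighted fits, a replicate block, a covariate, and leaving out libraries. Replicate numbers do not pair the groups. No library was a copy of another (pairwise correlations 0.934 to 0.958). Pseudogenes were aligned with Biopython 1.88.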

Additional observations from a re-analysis of the deposited data

Results flagged for a closer look

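Single libraries stood far from the other 4 of their group in 9 of 138 sets of a named gene and a group checked; chance flags about 1 in 20 such sets. In APP/TAU vehicle replicate 1 these were Mapt (179 scaled TPM, the others 148 to 156), Cd68 (7.53 scaled TPM, the others 4.56 to 5.33) and Serpina3n (14.8 scaled TPM, the others 7.51 to 9.51). In wild type replicate 4 they were Mapt (142 scaled TPM, the others 124 to 126), Cox7c (309.8 scaled TPM, the others 226 to 244) and mt-Atp8 (785 scaled TPM, the others 1542 to 1819). The others were Avp in wild type replicate 3 (31.9 scaled TPM, the others 1.73 to 8.84), Fos in wild type replicate 1 (31.1 scaled TPM, the others 26.8 to 28.0) and Gstm5 in APP/TAU vehicle replicate 4 (68.1 scaled TPM, the others 82.3 to 87.0).

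The genotype fold differed between APP/TAU and AppNLGF for these named genes, with the difference of log2 folds in parentheses. The genotype fold was higher in APP/TAU for Thy1 (1.30), App (0.92), Gm15920 (3.87), Cfap54 (0.66) and Gm48114 (0.64). It was also higher for the immediate early and clock genes Fos (1.82), Nr4a1 (1.46), Dusp1 (1.45), Junb (1.32), Arc (1.26), Npas4 (1.23), Per1 (0.74) and Cry2 (0.29). Microglial, complement and lysosomal genes had a lower fold: Lyz2 (-1.57), Trem2 (-1.50), Fcgr3 (-1.0), C1qa (-0.95), C1qb (-0.82), C1qc (-0.95), Ctsd (-0.96), Ctsl (-0.59) and Lamp2 (-0.31). The astrocyte genes Gfap (-1.53), C4b (-1.0) and Aldoc (-0.32), the NRF2 targets Hmox1 (-0.75) and Ftl1 (-0.28) and the respiratory genes Ndufa12 (-0.41) and Cox7c (-0.45) had a lower fold as well. With deposited TPM the difference was no longer called for Fcgr3, C1qa, C1qb, C1qc, Ctsd, Ctsl, Lamp2, C4b, Aldoc, Hmox1, Ftl1, Ndufa12, Cox7c, Cfap54 and Cry2 (adjusted p from 0.0515 to 0.810), and with a pseudocount of 0.1 for Gm15920 (0.142). With 1 of 25 libraries left out, calls were lost in 2 fits for Hmox1, 3 for Per1, 4 for C4b and Gm48114, 8 for Arc, 14 for Lamp2, Ndufa12 and Cfap54, 15 for Cox7c, 16 for Aldoc and 19 for Ftl1 and Cry2 (adjusted p up to 0.158). C1qa, C1qb, C1qc, Ctsd, Lyz2, Junb, Npas4 and Nr4a1 were named after their values were seen.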

How the results depend on the processing

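Thy1 and App were called under every one of the 22 alternatives run. So was Gm15920, and Gm9855 was under all but the minimum mean TPM of 5, where it was not tested. Both pseudogenes pass a level filter only through APP/TAU libraries, so their calls under such filters are given as a description. The count of 5 called genes went to 8 when TPM were rescaled without mitochondrial and the 20 most abundant genes, and ranged from 5 to 14 when 1 library was left out, with 8 without wild type replicate 1 and 14 without APP/TAU replicate 3; the 5 were among them each time. Fyco1, Dpysl5 and Myh10, named after their values were seen, were gained by the rescaling, and Cfap54 without wild type replicate 4 (adjusted p = 0.0265). Ndufa12 lost its call with deposited TPM, with only the 2 groups in the fit (adjusted p = 0.0534), with the share of the most abundant RNA as covariate (adjusted p = 0.259) and without the 2 libraries under 20% of that RNA, an alternative chosen after seeing the data; its adjusted p ran from 0.00147 to 0.259. With a replicate block 4 genes were called, without Ndufa12 (adjusted p = 0.0697); same-numbered libraries correlated at -0.047 to 0.0869 over genes, only wild type replicate 3 correlated best with its own number, and the numbers only name libraries. Folds of 17 of the 68 named genes, none called, changed sign with deposited TPM, and up to 3 in any other alternative.

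The 87 genes that differed between the models were 29 with deposited TPM (26 higher and 3 lower in APP/TAU, against 28 and 59), and 42 to 116 with 1 library left out. Counts moved by over 1.5 times were, among 11-month libraries, 57 without wild type replicate 2, 44 without 3, 43 without 4, 52 without APP/TAU replicate 2 and 44 without 4; and, in an alternative chosen after seeing the data, 50 without 6-month wild type replicate 1, 42 without 2, 48 without 3 and 57 without AppNLGF replicate 5. The lower share of the most abundant RNA ranged from -9.91 to -6.50 points with 1 library left out (exact permutation p from 0.0397 to 0.127), and reached p = 0.0397 without APP/TAU replicate 3 (a difference of -9.75) or 5 (-9.91). A term for sex was not run, since no library had Xist above 10 TPM. The cause of these changes was not tested. Depth is unknown, and 5 libraries a group limit the precision.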
